A study of Homo sapiens with 6 samples.

Results

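Small nucleolar RNA (snoRNA) host genes are transcribed and spliced like messenger RNA genes, but their introns carry snoRNAs and their exons code for little or no protein. The members described here are the 10 noncoding host genes GAS5, ZFAS1, SNHG1, SNHG5, SNHG6, SNHG7, SNHG8, SNHG12, SNHG16 and SNHG29. They were taken by name, by a rule that uses no measured value, from the 34869 genes of the deposited table, and all 10 were found by identifier. The choice was made with earlier results of these data known. RNA was measured by paired-end sequencing in 3 shTPD52 libraries and 3 shCtrl libraries of NCI-H295R, an established human adrenocortical carcinoma line that makes adrenal steroids. In shTPD52 the cells carried a lentiviral short hairpin RNA against TPD52, and in shCtrl a lentiviral non-targeting one, so all 6 libraries come from transduced cells of a single line. The labels give neither the number of hairpins used nor whether the replicates were separate cultures. P-values therefore measure only the spread between these libraries, which may be technical. The series asks how the transcriptome of these cells differs when TPD52 is knocked down.

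As background, a host gene makes a pair of products from the same transcript. The excised introns are trimmed to snoRNAs, which guide methylation or pseudouridylation of ribosomal RNA, and the spliced exons leave the nucleus and are often removed quickly by nonsense-mediated decay when ribosomes meet an early stop codon. Many host genes start transcription at a C followed by a run of pyrimidines, the 5′ terminal oligopyrimidine (TOP) motif that ribosomal protein genes also have. Through this motif, translation of the RNA follows the growth-control kinase mTOR, so spliced host RNA that escapes translation can also escape decay. GAS5 was named for its accumulation in growth-arrested cells, and its spliced RNA is known as a decoy for the glucocorticoid receptor.

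The depth recovered from the table was 29544341 to 38396624 reads in shTPD52 and 30582681 to 36885546 reads in shCtrl. Reads of mitochondrially encoded genes made up 22.1% ± 2.37 of the shTPD52 libraries and 17.9% ± 0.527 of the shCtrl libraries (SD, n = 3 each), with an exact two-sided permutation p of 0.1, the smallest that 3 against 3 libraries allow. On the first principal component, with 61% of the variance, shTPD52 replicates 1 and 3 lay at 27.3 and 35.3, shTPD52 replicate 2 at 0.29, and the shCtrl libraries between -24.1 and -16.4. TPD52, the targeted gene, averaged 0.640 ± 0.0131 FPKM in shTPD52 and 1.30 ± 0.124 FPKM in shCtrl (SD, n = 3 each), so the libraries match their labels. The 12 adrenocortical markers listed were all above 2 FPKM on average over the 6 libraries. MC2R (3.98 FPKM in shTPD52, 1.12 FPKM in shCtrl) and INHA (2.555 and 1.88 FPKM) were so only through shTPD52. The summed levels of the markers were 723.9 to 761.2 FPKM in shTPD52 and 623.5 to 654.9 FPKM in shCtrl. Of 14 listed markers of other cell types, 13 were in the table, and COL3A1, a fibrillar collagen, was the only one of these above 2 FPKM on average. Their summed level was 20.1 to 25.1 FPKM in shTPD52 and 23.9 to 26.2 FPKM in shCtrl.

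The starts of the annotated transcripts show what the group shares in sequence. Of the 156 transcripts that GENCODE release 29 gives for the 10 genes, 29 (18.6%) begin with a C followed by at least 4 pyrimidines (C or T), and 9 of the 10 genes have at least 1 such transcript. SNHG7 is the gene without one, with a longest tract of 4 bases. The same start was found in 16.6% of 561 transcripts of 41 protein-coding host genes, in 4.93% of 203 transcripts of 21 other noncoding host genes, and in 2.68% of 105416 transcripts of the tested genes. Such transcripts were annotated for 29 of 41 protein-coding hosts (70.7%), 6 of 21 other noncoding hosts (28.6%) and 16.0% of 12707 tested genes. A gene with more annotated transcripts has more chances to hold one, and an annotated end need not be the start used in these cells. For 8 genes the first 30 bases are printed here from GENCODE release 29 (GRCh38), for the tract-bearing transcript that lies nearest to the RefSeq start, because they show the motif that names the class. Capitals mark the opening run of pyrimidines.
SNHG12 (transcript SNHG12-202, chr1:28581844-28581873, minus strand): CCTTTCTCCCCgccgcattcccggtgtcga
SNHG29 (annotated as LRRC75A-AS1, chr17:16438975-16439004, plus strand): CTCCTTTTgtgaggattgggatattccgac
GAS5 (transcript GAS5-210, chr1:173867960-173867989, minus strand): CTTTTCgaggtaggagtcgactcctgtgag
SNHG16 (transcript SNHG16-204, chr17:76557769-76557798, plus strand): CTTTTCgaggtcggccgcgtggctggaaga
SNHG8 (transcript SNHG8-205, chr4:118278758-118278787, plus strand): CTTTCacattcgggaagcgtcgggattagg
ZFAS1 (transcript ZFAS1-201, chr20:49278642-49278671, plus strand): CTTTCgcgtctgcggtgcccggagtgtggt
SNHG5 (transcript SNHG5-202, chr6:85678704-85678733, minus strand): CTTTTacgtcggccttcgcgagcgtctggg
SNHG1 (transcript SNHG1-203, chr11:62855450-62855479, minus strand): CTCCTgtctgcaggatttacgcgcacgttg

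The run is 11 bases long in SNHG12 and 8 in SNHG29, and 5 or 6 bases in the other genes printed. GAS5 and SNHG16 share their first 11 bases. The printed starts of ZFAS1, SNHG5 and SNHG12 coincide with the RefSeq start, and those of SNHG8, SNHG16 and SNHG29 lie within 12 bp of it. For SNHG1 and GAS5 they lie 406 bp and 1056 bp downstream.

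Promoters were available from RefSeq (GRCh38.p14) for 9 of the 10 genes, all but SNHG6. In the window from 50 bases before to 50 after the start, TATAA was found on either strand in 6 of the 9. These were SNHG1, SNHG5, SNHG7, SNHG8, SNHG12 and ZFAS1. The share was 21.1% for promoters of the other noncoding hosts, 21.1% for those of the protein-coding hosts and 8.34% of 35116 promoters in all. On the strand of the gene TATAA was found in 5 of the 9, against 21.1%, 15.8% and 6.2% in the same order. Most promoters lack this element, at which the general transcription machinery positions the start of transcription. The longer motif TATATAAG, which contains TATAA, was found in SNHG12, SNHG5 and ZFAS1, against 5.26% of protein-coding host promoters, 0 of 19 promoters of other noncoding hosts and 0.379% of all promoters. Their stretches are printed because the element and the pyrimidine start stand in the same 60 bases, with TATATAAG in capitals, 30 to 32 bases before the start. A match of letters in a window is a description and not a measured binding site.
SNHG12 promoter (chr1:28581864-28581923, minus strand): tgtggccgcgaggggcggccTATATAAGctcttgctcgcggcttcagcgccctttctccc
SNHG5 promoter (chr6:85678724-85678783, minus strand): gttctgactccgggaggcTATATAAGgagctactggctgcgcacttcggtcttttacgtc
ZFAS1 promoter (chr20:49278592-49278651, plus strand): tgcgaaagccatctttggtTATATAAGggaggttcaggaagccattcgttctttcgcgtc

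The 10 genes spanned more than 100-fold in level, in the same order in both groups. SNHG6 was highest, at 55.0 ± 7.66 FPKM in shTPD52 and 39.5 ± 3.02 FPKM in shCtrl (SD, n = 3 each), and SNHG29, GAS5, SNHG1, SNHG7, SNHG16, SNHG12 and SNHG8 followed. ZFAS1 and SNHG5 were lowest, both under 1 FPKM in every library. FPKM is reads per kilobase of gene length and per library size, so these are levels per length. In shTPD52 the ranges of neighbours in this order overlapped only for SNHG16 and SNHG12, and in shCtrl only for ZFAS1 and SNHG5. RNA per cell and the mix of cells cannot be told apart in bulk libraries.

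**Figure D1:**
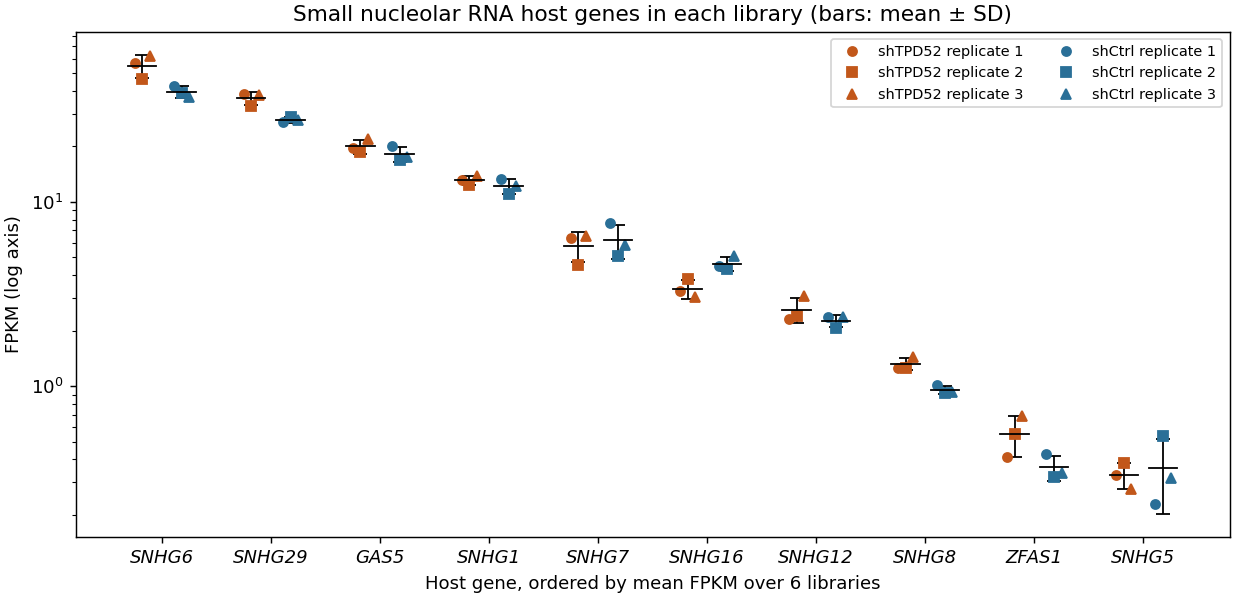
Level of each host gene in each library, in FPKM on a log axis, with genes ordered by their mean over the 6 libraries, shTPD52 left of shCtrl, and bars for the mean and SD of 3 libraries. SNHG6, SNHG29 and SNHG8 are higher in every shTPD52 library than in any shCtrl library, SNHG16 is lower in every one, and the other 6 genes overlap.

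The host genes did not all move in one direction with the TPD52 hairpin. Of the 8 that reached the minimum mean of 1 FPKM for the test, SNHG6 and SNHG29 were higher in shTPD52, SNHG16 was lower, and 5 did not pass, by limma adjusted by Benjamini-Hochberg over the whole set of 12782. Over those genes the same test called 18.3%, with 5.63% higher and 12.7% lower. Groups did not overlap for 4 of the 8 members, 3 higher (SNHG6, SNHG29 and SNHG8) and 1 lower (SNHG16), against 42% of all tested genes, 13.8% higher and 28.3% lower. SNHG8 was among the 8 only through its level in shTPD52, so these counts support nothing about the group. Fold changes were positive for 6 of the 8, against 36.8% of all tested genes, and the median was 0.15 on the log2 scale, beside -0.11 over all genes tested. Median-ratio scaling moved the median of all genes to 0.0005 and that of the 8 to 0.26, and a correction for gene length and GC content moved them to 0.005 and 0.25. Leaving out 1 library gave medians for the 8 from 0.066 (without shTPD52 replicate 3) to 0.20 (without shCtrl replicate 1), with 0.096 without shCtrl replicate 2.

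**Figure D2:**
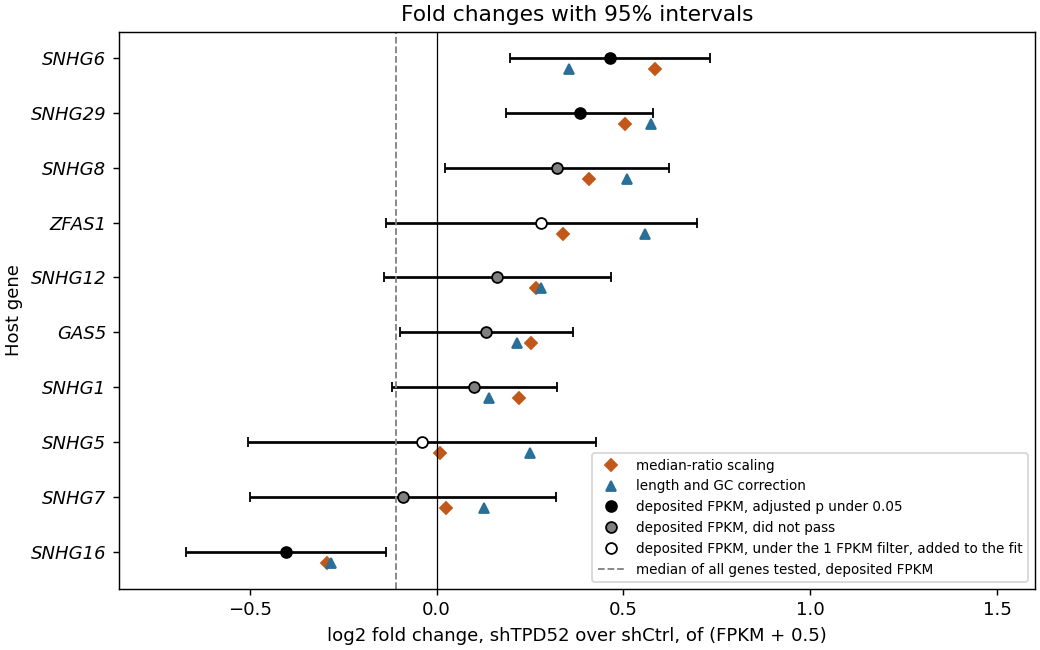
Log2 fold change of (FPKM + 0.5), shTPD52 over shCtrl, for the 10 host genes, with 95% intervals from limma on the deposited FPKM, and the values after median-ratio scaling (diamonds) and once length and GC content were corrected for (triangles). The intervals of SNHG6, SNHG29, SNHG8 and SNHG16 leave out 0, SNHG16 alone lies below 0 under all 3 treatments of the data, and the signs of SNHG5 and SNHG7 turn.

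SNHG6 (ENSG00000245910, chr8:66921684-66926398, minus strand) hosts the C/D box snoRNA SNORD87. It stood at 56.5, 46.7 and 61.7 FPKM in shTPD52 replicates 1, 2 and 3, and at 42.9, 38.8 and 36.9 FPKM in the shCtrl replicates. Every shTPD52 library was above every shCtrl library, and shTPD52 replicate 2 was the lowest of its group. The ratio of means was 1.39, and the log2 fold change was 0.46 (SE 0.12, 95% interval 0.20 to 0.73, limma adjusted p = 0.0336). Its reads, as recovered, numbered 2083 to 2955 per shTPD52 library and 1481 to 1832 per shCtrl library. The call ended once length and GC content were corrected for (log2 fold change 0.35, limma adjusted p = 0.0638).

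SNHG29 (ENSG00000175061, chr17:16438822-16478678, plus strand), named LRRC75A-AS1 in GENCODE release 29, carries C/D box snoRNAs of the SNORD49 and SNORD65 families. Its level was 38.7, 33.3 and 38.0 FPKM in shTPD52 and 27.0, 29.1 and 27.8 FPKM in shCtrl. The lowest shTPD52 library, again replicate 2, lay above the highest shCtrl library. The log2 fold change was 0.38 (SE 0.085, 95% interval 0.19 to 0.58, limma adjusted p = 0.0250), a ratio of means of 1.31. It also passed once length and GC content were corrected for, with an estimate of 0.57 on the log2 scale (limma adjusted p = 0.0233). With 6381 to 10469 reads in each library, it held more recovered reads than any other member.

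SNHG6 and SNHG29 together made up 67.1%, 64.6% and 66.3% of the summed FPKM of the 10 genes in shTPD52, and 58.5%, 62.2% and 59.2% in shCtrl. The sum itself was 142.0, 123.8 and 150.5 FPKM in shTPD52 and 119.6, 109.1 and 109.4 FPKM in shCtrl. Without this pair the other 8 genes summed to 46.7, 43.9 and 50.8 FPKM in shTPD52 and 49.7, 41.2 and 44.7 FPKM in shCtrl, ranges that overlap. These sums are given as a description.

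SNHG16 (ENSG00000163597, chr17:76557766-76565348, plus strand), which hosts snoRNAs of the SNORD1 family, was the member that fell. It stood at 3.27, 3.83 and 3.05 FPKM in shTPD52, against 4.49, 4.31 and 5.07 FPKM in shCtrl. The shTPD52 libraries were all below the shCtrl libraries, and replicate 2 came nearest to them. SNHG16 fell by 0.40 on the log2 scale (SE 0.12, 95% interval -0.67 to -0.13, limma adjusted p = 0.0484), with a ratio of means of 0.732. Its call lies close to the threshold: it ended with median-ratio scaling (log2 fold change -0.29, limma adjusted p = 0.0698) and once length and GC content were corrected for (-0.28, limma adjusted p = 0.0517). SNHG16 shares the leading 11 bases of its TOP start with GAS5, which did not pass the test.

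The 3 calls also rest on the full set of libraries. Leaving out any 1 library ended the calls of SNHG6, SNHG29 and SNHG16, except that all 3 passed without shTPD52 replicate 2. In each of the 5 sets that ended the calls, limma gave 2 members higher and 1 lower at an unadjusted p under 0.05. The share of all genes at that unadjusted threshold is not given here, so these counts are a description only. Over all alternatives the limma adjusted p ran from 0.00265 to 0.132 for SNHG6, from 0.00249 to 0.110 for SNHG29 and from 0.00810 to 0.178 for SNHG16. The direction of each was the same in all of them. The higher mitochondrial share of shTPD52 moved with these results. After rescaling to the reads outside mitochondrially encoded genes, SNHG6 and SNHG29 passed and SNHG16 did not (limma adjusted p = 0.0624).

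SNHG8 (ENSG00000269893, chr4:118278709-118279823, plus strand), host of the H/ACA box snoRNA SNORA24, was 1.26, 1.26 and 1.44 FPKM in shTPD52, and 1.01, 0.920 and 0.931 FPKM in shCtrl. The groups did not overlap, and the ratio of means was 1.38, close to that of SNHG6. Its log2 fold change was 0.32 (SE 0.13, 95% interval 0.02 to 0.62) and did not pass (limma adjusted p = 0.110). It reached the mean of 1 FPKM through its level in shTPD52, since the shCtrl mean was 0.954 FPKM, and the added 0.5 FPKM shrinks the fold change of so low a gene. SNHG8 passed in 2 alternatives, limma-voom on the recovered reads (log2 fold change 0.47, adjusted p = 0.0407) and correction for length and GC content (0.51, limma adjusted p = 0.0392).

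GAS5 (ENSG00000234741, chr1:173863900-173868882, minus strand), which carries a row of C/D box snoRNAs, was 19.6, 18.6 and 21.9 FPKM in shTPD52 and 20.2, 16.9 and 17.6 FPKM in shCtrl. The groups overlapped, with shCtrl replicate 1 above 2 of the shTPD52 libraries. Its log2 fold change was 0.13 (95% interval -0.10 to 0.36, limma adjusted p = 0.353). SNHG1 (ENSG00000255717, chr11:62851988-62855914, minus strand), long known as the host of SNORD22, was 13.2, 12.3 and 13.8 FPKM in shTPD52 and 13.3, 11.1 and 12.2 FPKM in shCtrl. It overlapped in the same way, at a log2 fold change of 0.10 (95% interval -0.12 to 0.32, limma adjusted p = 0.458). For these well-covered genes, with at least 1342 recovered reads in each library, the upper ends of the intervals lie below the estimate for SNHG6. The difference between members was not tested.

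SNHG12 (ENSG00000197989, chr1:28578538-28583132, minus strand), whose introns hold H/ACA box snoRNAs and SNORD99, was 2.32, 2.42 and 3.08 FPKM in shTPD52 and 2.37, 2.06 and 2.36 FPKM in shCtrl. Only shTPD52 replicate 3 stood well above the shCtrl libraries, and the log2 fold change of 0.16 did not pass (95% interval -0.14 to 0.47, limma adjusted p = 0.384). SNHG7 (ENSG00000233016, chr9:136721366-136728184, minus strand), a host of H/ACA box snoRNAs, was 6.33, 4.54 and 6.50 FPKM in shTPD52 and 7.67, 5.11 and 5.83 FPKM in shCtrl. Its replicates spread more than its groups differed, at a log2 fold change of -0.089 (95% interval -0.50 to 0.32, limma adjusted p = 0.736). That sign turned positive with median-ratio scaling, once length and GC content were corrected for, and without shTPD52 replicate 2 or shCtrl replicate 1.

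ZFAS1 and SNHG5 lay under the minimum of 1 FPKM, and each was added alone to the fit after the data were seen. ZFAS1 (ENSG00000177410, chr20:49278178-49295738, plus strand), host of snoRNAs of the SNORD12 family, was 0.411, 0.551 and 0.692 FPKM in shTPD52 and 0.428, 0.323 and 0.336 FPKM in shCtrl. The groups overlapped through shTPD52 replicate 1, and the log2 fold change was 0.28 (95% interval -0.14 to 0.70, limma adjusted p = 0.279). SNHG5 (ENSG00000203875, chr6:85660950-85678748, minus strand), host of the SNORD50 snoRNAs, was 0.330, 0.383 and 0.275 FPKM in shTPD52 and 0.229, 0.534 and 0.316 FPKM in shCtrl. The shCtrl libraries spread on either side of all shTPD52 libraries, and the log2 fold change was -0.039 (95% interval -0.50 to 0.43, limma adjusted p = 0.904). These 2 genes rest on 82 to 221 reads per library, and the sign for SNHG5 also turned positive with median-ratio scaling and once length and GC content were corrected for.

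Gene length bears on both the levels and the fold changes. In the tested genes the median log2 fold change was 0.033 for lengths up to 1 kb, 0.11 up to 2 kb, -0.0076 up to 4 kb, -0.16 up to 8 kb and -0.27 above 8 kb. SNHG6, at 1247 bp, stood in the class with the median of 0.11, while SNHG29, at 7176 bp, and SNHG16, at 5364 bp, were both in the class with the median of -0.16. SNHG29 thus rose against the median of its length class. The lengths behind the deposited FPKM equalled the exon union of GENCODE release 29 for SNHG6 and SNHG12 but were longer for SNHG8 (6608 against 923 bp), SNHG5 (12604 against 2806 bp), ZFAS1 (8315 against 2243 bp) and SNHG29 (7176 against 3759 bp). The gene coordinates printed here are those of GENCODE release 29, in which SNHG8 spans 1115 bp, less than the length behind its FPKM. For a given number of reads, a longer length lowers a gene's FPKM in every library alike. A longer annotation can also bring in reads of other sequence, which need not be alike between libraries. Fold changes, that of SNHG29 among them, can therefore depend on it, which was not tested. The low levels of SNHG8, SNHG5 and ZFAS1, and the level of SNHG29, therefore depend on the annotation used. Places in the order can depend on it too. ZFAS1 and SNHG5 also had few recovered reads, 82 to 221 per library. The fold changes of SNHG8, SNHG5 and ZFAS1 depend on the annotation in another way too, since the added 0.5 FPKM weighs more at a lower level. At added values of 0.1 and 1 FPKM the log2 fold change was 0.43 and 0.25 for SNHG8, and 0.48 and 0.18 for ZFAS1.

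**Figure D3:**
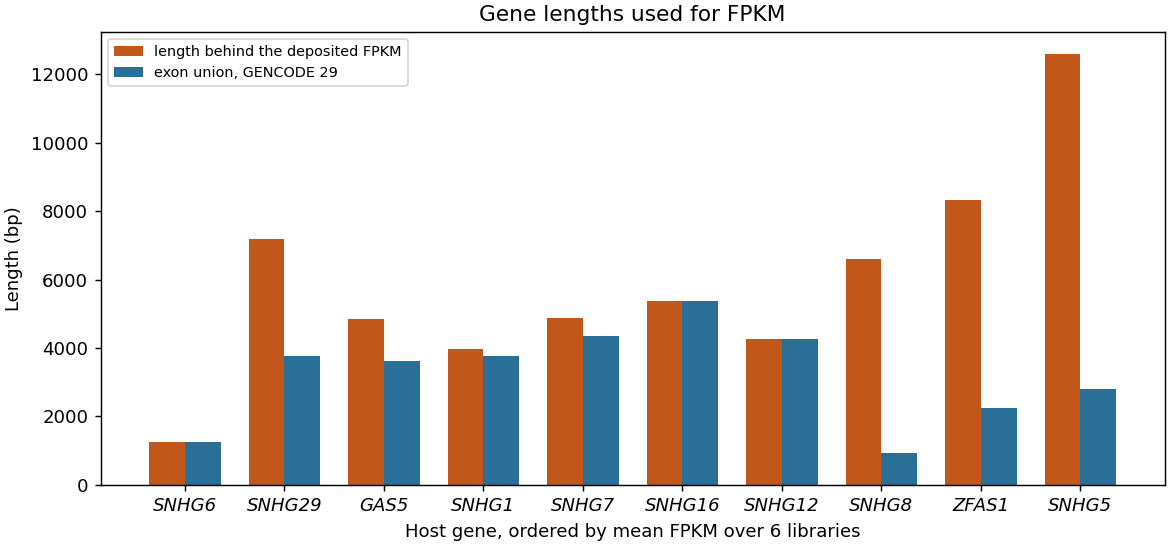
Length in bp behind the deposited FPKM, worked back from whole reads, and exon union in GENCODE release 29, for the 10 host genes ordered by mean FPKM. The bars are equal for SNHG6 and SNHG12 and differ by the highest ratio for SNHG8, at 6608 against 923 bp.

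Several members lie against genes on the other strand, and the strand setting of the counting is not given in the sources used here, so reads of overlapping exons cannot be told apart. Overlaps are shares of the GENCODE release 29 exon union and not of the length behind the FPKM. For SNHG29 these were 3759 and 7176 bp. GENCODE release 29 places exons of MCMDC2 over 29.3% of the SNHG6 exon union. MCMDC2 averaged 0.0294 FPKM in shTPD52 and 0.0149 FPKM in shCtrl. LRRC75A covers 12.0% of SNHG29 and stood at 9.81 ± 0.802 FPKM in shTPD52 and 9.95 ± 0.405 FPKM in shCtrl (SD, n = 3 each; limma adjusted p = 0.878). Its log2 fold change was -0.022 with a 95% interval of -0.23 to 0.19. Whether reads of overlapping exons bear on the fold changes of SNHG29 or other members was not tested. A gene without a symbol, ENSG00000284526, covers 30.6% of SNHG16 and averaged 0.0452 FPKM in shTPD52 and 0.0443 FPKM in shCtrl. DIPK1B, a transmembrane protein of the kinase-like FAM69 family, covers 25.2% of SNHG7 and stood at 11.0 ± 1.48 FPKM in shTPD52 and 12.6 ± 0.960 FPKM in shCtrl (SD, n = 3 each; log2 fold change -0.19, limma adjusted p = 0.251).

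Genes that start back to back with a member did not pass either where they were tested. SLC3A2, the heavy chain of amino acid transporters, starts 188 bp from SNHG1 on the other strand and averaged 17.3 ± 2.52 FPKM in shTPD52 and 19.3 ± 0.471 FPKM in shCtrl (SD, n = 3 each; log2 fold change -0.16, limma adjusted p = 0.313). ZNFX1, a zinc finger protein, starts 248 bp from ZFAS1 and averaged 5.16 ± 1.10 FPKM in shTPD52 and 6.53 ± 0.534 FPKM in shCtrl (SD, n = 3 each; log2 fold change -0.33, limma adjusted p = 0.143). In both pairs the host gene and its neighbour had estimates of opposite sign, and neither gene of a pair passed. ZBTB37, 800 bp from the start of GAS5, was under the minimum level, at 0.709 ± 0.153 FPKM in shTPD52 and 1.04 ± 0.122 FPKM in shCtrl (SD, n = 3 each).

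The snoRNAs themselves have few rows of their own among the values used here. GENCODE release 29 places 28 snoRNA genes inside the members on the same strand, and these do not include the snoRNAs of GAS5. A list of 37 snoRNA symbols had 3 in the table used here, of which 1 has an identifier inside a member. It is also the only 1 of the 28 with a row. That gene, SNORD99 (ENSG00000221539), sits in SNHG12 outside its exons and stood at 5.49, 8.52 and 5.28 FPKM in shTPD52, against 3.55, 2.65 and 4.03 FPKM in shCtrl. Every shTPD52 library was higher, and the log2 fold change was 0.81 (SE 0.20, limma adjusted p = 0.0336), while its host SNHG12 did not pass. The call ended with limma-voom on the recovered reads (adjusted p = 0.187), without a filter on low values (limma adjusted p = 0.119), and without shTPD52 replicate 1 or any 1 shCtrl replicate (limma adjusted p from 0.0845 to 0.105). It is 74 bp long and its values rest on 12 to 23 reads per shTPD52 library and 6 to 11 per shCtrl library. Reads from the unspliced host intron and from the snoRNA cannot be told apart. Values of the members have a like limit, because their annotated exons in GENCODE release 29 can cover snoRNAs. SNORA24, for example, covers 131 bp (14.2%) of the SNHG8 exon union. The exon union fills 95.6% of the span of SNHG1 and 92.8% of that of SNHG12, but 9.4% of that of SNHG29. Member values may therefore include reads of snoRNAs or of unspliced RNA.

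Protein-coding host genes, many of which encode ribosomal proteins, translation factors or proteins of ribosome assembly, had positive fold changes in 38 of 41 cases, against 36.8% of all tested genes. By the test 11 rose, 2 fell and 28 did not pass (31.7% called, beside 18.3% of all genes), and the median log2 fold change was 0.28. HSPA8, the constitutive HSP70 chaperone, rose to 281.8, 299.9 and 314.8 FPKM in shTPD52, against 198.6, 193.0 and 205.9 FPKM in shCtrl (log2 fold change 0.58, SE 0.076, limma adjusted p = 0.00797). RPL5, which carries the 5S ribosomal RNA into the large subunit, rose to 210.5, 201.7 and 234.2 FPKM in shTPD52, against 162.9, 164.9 and 151.7 FPKM in shCtrl (log2 fold change 0.43, limma adjusted p = 0.0184). Others that rose included RPL21, RPL23, RPL27A, RPL30, RPL32, RPS3 and TAF1D. EIF4A1, an RNA helicase of translation initiation, fell to 0.738 ± 0.0360 FPKM in shTPD52, against 1.51 ± 0.0954 FPKM in shCtrl (SD, n = 3 each; log2 fold change -0.70, limma adjusted p = 0.0168). It reached the mean of 1 FPKM only through its level in shCtrl, so its place among the 41 genes is not independent of its fall. EEF2, the elongation factor that moves the ribosome, fell too. Values of ribosomal protein genes are uncertain because their many processed pseudogenes share reads, and those of EIF4A1 because the readthrough gene SENP3-EIF4A1 is annotated over the same exons.

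Of 21 other noncoding host genes listed, 12 were tested, of which 1 rose, 1 fell and 10 did not pass. The share called, 16.7%, is near the 18.3% over all genes. Their median log2 fold change of 0.04 was 0.16 with median-ratio scaling, 0.15 with correction for length and GC content and 0.16 without shTPD52 replicate 2, and it turned to -0.030 without shTPD52 replicate 3 and -0.0086 without shCtrl replicate 2. SNHG30 rose to 7.24 ± 1.31 FPKM in shTPD52, against 4.40 ± 0.643 FPKM in shCtrl (SD, n = 3 each; log2 fold change 0.65, limma adjusted p = 0.0266). MEG3, the maternally expressed RNA of an imprinted locus, fell to 38.2 ± 4.56 FPKM in shTPD52, against 48.6 ± 2.30 FPKM in shCtrl (SD, n = 3 each; log2 fold change -0.35, limma adjusted p = 0.0491). Once length and GC content were corrected for, the sign for MEG3 turned, to 0.016.

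**Figure D4:**
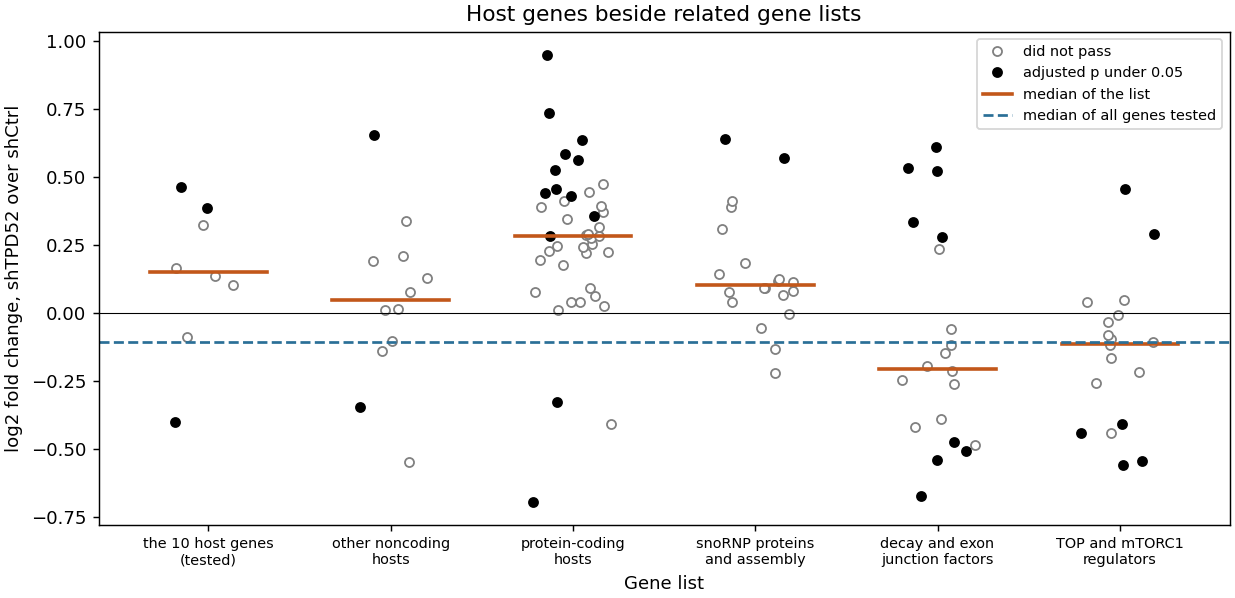
Log2 fold change, shTPD52 over shCtrl, of each tested gene in the 10 host genes and 5 related lists, with filled points for limma adjusted p under 0.05, a bar for each list's median and a dashed line for the median of all tested genes. The median is 0.15 for the host genes, 0.28 for the protein-coding hosts and -0.21 for the decay and exon junction factors.

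Proteins that bind snoRNAs or assemble them into particles mostly did not pass the test. Of 20 tested, 2 rose and 18 did not pass (10% called, beside 18.3% of all genes). The median log2 fold change was 0.10, and 0.22 with median-ratio scaling, 0.18 with rescaling to non-mitochondrial reads and 0.17 with correction for length and GC content. NOP58, a core protein of C/D box particles, rose to 9.06 ± 0.421 FPKM in shTPD52, against 5.97 ± 0.691 FPKM in shCtrl (SD, n = 3 each; log2 fold change 0.57, limma adjusted p = 0.0162). GAR1, a core protein of H/ACA box particles, rose to 24.3 ± 4.57 FPKM in shTPD52, against 15.3 ± 1.93 FPKM in shCtrl (SD, n = 3 each; log2 fold change 0.64, limma adjusted p = 0.0283).

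The factors of nonsense-mediated decay and the exon junction complex, which act on spliced host RNA, changed in both directions. Of 20 tested, 5 rose, 4 fell and 11 did not pass (45% called, beside 18.3% of all genes), with a median log2 fold change of -0.21. Median-ratio scaling gave 5 higher, 3 lower and a median of -0.094, and correction for length and GC content 6 higher, 2 lower and a median of -0.040. Without shTPD52 replicate 3 the median was -0.10. SMG5, which recruits decay enzymes, fell to 18.7 ± 2.66 FPKM in shTPD52, against 30.02 ± 1.88 FPKM in shCtrl (SD, n = 3 each; log2 fold change -0.67, limma adjusted p = 0.0129). UPF1, the central helicase of the pathway, fell to 10.0 ± 0.960 FPKM in shTPD52, against 14.4 ± 0.469 FPKM in shCtrl (SD, n = 3 each; log2 fold change -0.51, limma adjusted p = 0.0162), and its call ended once length and GC content were corrected for (-0.19, limma adjusted p = 0.0653). CASC3, a peripheral exon junction protein, and DHX34, a helicase that activates UPF1, were the others that fell. Those that rose were MAGOHB (log2 fold change 0.53, limma adjusted p = 0.0148), its paralog MAGOH and their partner RBM8A, all of the exon junction core, and UPF3A and UPF3B, which link that complex to UPF1.

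Among 18 genes of TOP translation and mTORC1 control, 2 rose, 4 fell and 12 did not pass (33.3% called, beside 18.3% of all genes). The median log2 fold change of -0.12 was close to the -0.11 of all genes tested, and it was 0.0012 with median-ratio scaling and -0.22 without shTPD52 replicate 2. MTOR, the kinase itself, fell to 5.10 ± 0.905 FPKM in shTPD52, against 7.70 ± 0.715 FPKM in shCtrl (SD, n = 3 each; log2 fold change -0.56, limma adjusted p = 0.0304). TSC1, which restrains mTORC1, fell to 3.33 ± 0.414 FPKM in shTPD52, against 4.69 ± 0.176 FPKM in shCtrl (SD, n = 3 each; log2 fold change -0.44, limma adjusted p = 0.0326). Its partner TSC2 and LARP1, which binds TOP RNAs and holds back their translation, fell as well. AKT1S1, an inhibitory subunit of mTORC1, rose to 15.3 ± 1.96 FPKM in shTPD52, against 11.0 ± 0.431 FPKM in shCtrl (SD, n = 3 each; log2 fold change 0.45, limma adjusted p = 0.0294), and CNBP, an RNA-binding protein, rose. Once length and GC content were corrected for, 2 genes of this list rose and none fell, its median was 0.048, and the values of MTOR and TSC1 were -0.24 and -0.10 (limma adjusted p = 0.0616 and 0.315).

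The calls in these lists also depend on single libraries. Without shCtrl replicate 3, limma called 0 of the 41 protein-coding hosts at an adjusted p under 0.05, with 14 higher and 2 lower at an unadjusted p under 0.05, and it also called 0 members, other noncoding hosts, snoRNA-binding or assembly proteins, decay and exon junction factors, and genes of TOP and mTORC1 control. Without shTPD52 replicate 2 it called 28 protein-coding hosts higher and 3 lower, and 5 decay and exon junction factors higher and 9 lower. It then also called 2 genes of TOP and mTORC1 control higher and 7 lower, and 6 snoRNA-binding or assembly proteins higher and 1 lower. Calls over all genes moved in the same way, from 2341 of 12782 with all libraries (720 higher, 1621 lower). Without shCtrl replicate 3 limma called 87 genes in all, 48 higher and 39 lower. Without shTPD52 replicate 2 it called 5825 genes, 1616 higher and 4209 lower. The changes in list counts are therefore not particular to these lists.

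The median profile of the 8 tested members over the 6 libraries was compared with 6173 other genes of at least 5 FPKM, by the root mean square difference of centred log2 values. GAS5 (0.0335), SNHG1 (0.0472), SNHG12 (0.0668) and SNHG8 (0.0901) lay close to that profile, SNHG29 (0.148), SNHG6 (0.165) and SNHG7 (0.195) farther away, and SNHG16 (0.334) lay beyond the median of 0.221 for the compared genes. The profile is the median of these same 8 members, so some of them must lie near it. The compared genes had no part in it, so the distances of members are a description only. Genes outside the lists near to the profile included EI24 (0.0201), FLOT1 (0.0270), RTL8A (0.0298) and TPI1 (0.0302). Of these, EI24 encodes a membrane protein of the endoplasmic reticulum, FLOT1 a lipid raft protein and TPI1 the glycolytic enzyme triosephosphate isomerase. All profiles come from the same 6 libraries and share their depth and scaling.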

How the data were processed

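Total RNA was sequenced in 3 shTPD52 and 3 shCtrl libraries. The deposited values are FPKM computed by the authors, 1 column per library; HISAT2 2.2.1, featureCounts 2.0.3 and GRCh38 (hg38) are named in the submitters' processing notes without their roles, and neither the annotation release nor the strandedness of counting is given in the sources used here.

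Groups and replicate numbers came from the sample titles. Log2(FPKM + 0.5) of the 12782 genes averaging at least 1 FPKM was fitted with limma 3.58.1 (R 4.3.3), with an intensity trend, a two-sided test and Benjamini-Hochberg adjustment, at a threshold of 0.05. Fold changes on this scale understate the change of low genes. SNHG5, ZFAS1 and TPD52 lie under the minimum and were each added to the fit after their values were known. The members and lists were chosen with earlier results of these data known. Genes named were the members, TPD52, up to 3 passing genes of each list with the smallest p, overlapping or back-to-back genes, and the 5 nearest profiles; other genes were named after their values were seen. Some genes that this rule or a list would name are not reported here.

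Reads were worked back from FPKM, library total and gene length: the GENCODE release 29 exon union where it gave whole reads within 0.02 in all libraries (4400 tested genes), otherwise the shortest length that did (8382). A whole multiple of such a length would do as well, and the choice of lengths makes the reads whole. Reads may count both mates, and their number covers counting error only. Symbols were matched for 34803 genes (99.8%). Length and GC content were available for 12707 tested genes (99.4%), and the correction removed each library's loess trend (span 0.3) on both. Other alternatives were pseudocounts, filters, median-ratio scaling, rescaling to non-mitochondrial reads, limma without trend, limma-voom, a replicate block and leaving out each library. Scripts were tested on simulated data.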

Additional observations from a re-analysis of the deposited data

How the results depend on the processing

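SNHG6 and SNHG29 kept their positive sign in all 16 alternatives and SNHG16 its negative sign in all 15 that gave it a value. Without a filter on low values limma called 531 genes instead of 2341, and 0 members higher and 0 lower (3 higher and 1 lower at an unadjusted p under 0.05). For that unadjusted threshold the share of all genes is not given here. The count of members lower was also 0 with a filter of 5 FPKM (SNHG16 was then not tested), with median-ratio scaling, rescaling to non-mitochondrial reads, the length and GC correction, limma without trend and the replicate block. Members called higher were 3 with limma-voom. Leaving out 1 library gave 87 (without shCtrl replicate 3) to 5825 (without shTPD52 replicate 2) called genes, 0 to 2 members higher, 0 to 1 lower, and a difference in mitochondrial share of 3.14 to 5.49 percentage points beside 4.23 with all libraries. Signs turned for SNHG5 (0.0096 with median-ratio scaling, 0.25 with the length and GC correction, 0.0092 without shTPD52 replicate 3, 0.10 without shCtrl replicate 2, lowest -0.15 without shCtrl replicate 1), SNHG7 (0.026, 0.13, and 0.063 without either shTPD52 replicate 2 or shCtrl replicate 1, lowest -0.21 without shCtrl replicate 2) and MEG3 (0.016 with the length and GC correction). Median-ratio scaling split the calls into 1083 higher and 1038 lower, non-mitochondrial rescaling into 977 and 1216, and the length and GC correction into 1361 and 1272, instead of 720 and 1621. The cause of these changes was not tested. Same-numbered libraries deviated together with correlations of 0.045, 0.248 and 0.022, and shTPD52 replicate 3 correlated best with shCtrl replicate 1 (0.283), so the numbers were not taken as pairs. The replicate block called 3064 genes, with limma adjusted p of 0.0254 for SNHG6, 0.0302 for SNHG29 and 0.0567 for SNHG16. Depth limits ZFAS1, SNHG5 and SNORD99 most.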

Other observations

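Noncoding host genes outside the 10 that were named after their values were seen include SNHG21, at 1.16 ± 0.194 FPKM in shTPD52 and 1.95 ± 0.367 FPKM in shCtrl (SD, n = 3 each; log2 fold change -0.55, limma adjusted p = 0.0505), which did not pass although its groups did not overlap. SNHG22 stood at 0.0787 ± 0.0164 FPKM in shTPD52 and 0.231 ± 0.0446 FPKM in shCtrl (SD, n = 3 each), also without overlap, but lay under the minimum level for the test. SNHG32, at 23.1 ± 4.02 FPKM in shTPD52 and 24.7 ± 1.23 FPKM in shCtrl, and SNHG15, at 8.03 ± 0.989 FPKM in shTPD52 and 7.58 ± 0.689 FPKM in shCtrl (SD, n = 3 each), differed by less than their replicates spread.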
